A study of Mus musculus with 30 samples.

Results

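Regulatory T cells (Treg) were compared with conventional CD4+ T cells (Tconv) by ATAC-seq, which maps open chromatin by the sites at which a transposase can insert into DNA. Of the 30 samples of the series, 4 are compared here: both WT Treg and both WT Tconv libraries, chosen by their labelled cell type and by the column names of the table that holds 26 libraries. The Treg were sorted as CD4+hCD2+ cells and the Tconv as CD4+hCD2- cells, both freshly taken from lymph nodes and spleen of C57BL6/J mice. All 4 libraries carried the Foxp3-IRES-hCD2 reporter allele, in which human CD2 on the surface marks cells that transcribe Foxp3, so the Tconv gate held every CD4+ cell without the reporter, naive and antigen-experienced cells together. No age was given, and no label says that libraries with different numbers came from separate animals, so the variation behind a p-value may be technical. That variation was estimated over all 26 libraries of the table in 1 fit. Among them were BATF knockout Treg, Foxp3 R397W Treg and retrovirus-treated double-knockout (DKO) Treg. The titles of the DKO, Foxp3 R397W and Foxp3 R397W control libraries say omniATAC-seq, and those of the 4 compared say ATAC-seq. Of the 26, 8 further libraries (eTreg, cTreg, Teff and Tnaive) give the values of other populations. The series as a whole addressed how the transcription factors Foxp3 and BATF act on chromatin in effector Treg, and this contrast gives the difference between both lineages before any gene is removed.

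Treg hold back immune responses through secreted cytokines, consumption of interleukin 2 (IL-2) and contact with antigen-presenting cells, and loss of Foxp3 causes fatal autoimmunity in mice. Foxp3 binds mostly to enhancers together with Runx, Ets, NFAT and other factors, and several Treg genes are opened already before Foxp3 is made. Tconv keep the IL-2 gene inducible and, when naive, use TCF-1 and LEF-1 to hold a circulating, undivided state.

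The 5 promoters below belong to genes of the lists used here and had the largest changes among list genes' promoters in each direction: Foxp3, the chemokine receptor gene Ccr6 and the amphiregulin gene Areg were more open in Treg, and the NK cell receptor gene Klra1 and the naive T cell gene Dapl1 were less open. They are shown because a promoter rarely changed while distal sites often did, as given further on, and they were chosen after their values were seen. Each is a RefSeq promoter of GRCm38.p6, from 250 bases before to 50 bases after the start site, read 5′ to 3′ on the gene's strand. Capitals mark matches to the 14 motifs searched on both strands.
Foxp3 promoter, chrX:7579426-7579725, + strand: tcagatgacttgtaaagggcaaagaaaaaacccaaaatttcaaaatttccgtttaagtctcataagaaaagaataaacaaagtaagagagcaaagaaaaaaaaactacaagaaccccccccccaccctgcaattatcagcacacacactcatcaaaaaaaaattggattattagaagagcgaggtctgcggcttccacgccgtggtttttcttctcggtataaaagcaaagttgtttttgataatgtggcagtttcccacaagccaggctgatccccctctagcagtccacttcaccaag
Ccr6 promoter, chr17:8242276-8242575, + strand: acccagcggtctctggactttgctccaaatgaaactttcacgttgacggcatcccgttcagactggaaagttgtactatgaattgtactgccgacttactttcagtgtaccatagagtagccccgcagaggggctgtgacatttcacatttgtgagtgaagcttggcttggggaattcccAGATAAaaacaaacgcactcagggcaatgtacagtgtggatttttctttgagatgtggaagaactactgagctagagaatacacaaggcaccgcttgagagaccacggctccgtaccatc
Areg promoter, chr5:91139349-91139648, + strand: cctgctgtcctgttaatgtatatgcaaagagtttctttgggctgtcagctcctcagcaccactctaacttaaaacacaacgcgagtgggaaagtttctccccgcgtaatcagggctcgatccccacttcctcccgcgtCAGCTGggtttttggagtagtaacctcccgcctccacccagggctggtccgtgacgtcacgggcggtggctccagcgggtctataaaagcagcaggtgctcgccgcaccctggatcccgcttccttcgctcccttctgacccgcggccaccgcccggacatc
Klra1 promoter, chr6:130386825-130387124, - strand: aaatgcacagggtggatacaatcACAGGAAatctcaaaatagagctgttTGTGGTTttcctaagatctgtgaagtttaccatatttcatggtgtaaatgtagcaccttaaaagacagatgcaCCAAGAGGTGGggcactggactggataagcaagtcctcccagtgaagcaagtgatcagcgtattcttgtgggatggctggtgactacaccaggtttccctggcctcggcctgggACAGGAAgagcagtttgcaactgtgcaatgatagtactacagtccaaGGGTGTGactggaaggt
Dapl1 promoter, chr2:59484403-59484702, + strand: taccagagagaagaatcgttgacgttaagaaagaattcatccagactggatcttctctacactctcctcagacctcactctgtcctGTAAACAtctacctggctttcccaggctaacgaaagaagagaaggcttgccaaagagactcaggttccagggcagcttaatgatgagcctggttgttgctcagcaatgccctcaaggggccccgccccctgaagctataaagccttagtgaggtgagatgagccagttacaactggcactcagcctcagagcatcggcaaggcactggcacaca
In these 300 bases, the Foxp3 promoter held no match to the letters searched. The capitals are a GATA match (AGATAA) in Ccr6, an E-box match (CAGCTG) in Areg, and a forkhead match (TGTTTAC, on the other strand) in Dapl1. In Klra1 they are, from 5′ to 3′, an Ets match (ACAGGAA), a Runx match (TGTGGTT), a CTCF match, a second Ets match, and a KLF match (CACACCC, on the other strand). These are matches to letters and not measured binding sites.

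The table gave a normalized score for each of 69316 peaks, most of them 401 bases wide, on the mm10 build, and dividing a score by its library's factor gave whole reads. Reads in peaks were 6816236 and 8192609 in the Treg libraries, against 5071468 and 3716499 in the Tconv libraries, within a range of 3716499 to 25462278 over the 26. At this depth the median standard error (SE) of a log2 change was 0.34. The 4 libraries carry the same names in both deposited tables. This does not hold for all: of 18 libraries whose reads occur in both tables, 12 stand under another group's name in the table of 22, among them those called eTreg and cTreg (effector and central Treg) and Teff and Tnaive (effector and naive conventional T cells) here. Values of these 4 populations are therefore given under the names of the table of 26 only. Under those names the strongest Foxp3 peak scored 381 and 363 in eTreg and 435.5 and 370 in cTreg, against 7.84 and 7.83 in Teff and 1.28 and 9.07 in Tnaive.

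A peak was called when limma's test on log2(score + 1) gave a Benjamini-Hochberg adjusted p under 0.05. Of all peaks, 7011 (10.1%) were called higher in Treg and 6878 (9.92%) lower. The median of all 69316 log2 changes was 0.01. Called-higher peaks had a median score of 69.1 in Treg against 20.3 in Tconv, and a median log2 change of 1.59. Called-lower peaks had a median of 35.0 in Treg against 100.6 in Tconv, and a median log2 change of -1.40. At least 4-fold changes numbered 2197 higher and 1587 lower, and at least 16-fold changes 69 and 32. The scores of both Treg libraries lay on one side of both Tconv libraries at 57.9% of all peaks, so such separation alone marks little. Without Treg replicate 1 the calls fell to 8332. In the table of 22 libraries the median change of all peaks between the same 4 libraries was 0.22. There 14827 peaks were called higher and 5852 lower, so the balance between directions differs between the tables. They also differ in their peaks, in the other libraries fitted and in the deposited scaling of each library. In the table of 26, 1 read scored 1.22 and 1.02 in the Treg libraries, against 1.63 and 2.27 in the Tconv libraries. In the table of 22 it scored 0.947 and 0.881 in Treg, against 1.27 and 1.43 in Tconv. The part of each difference in the balance was not tested. In bulk libraries, fewer cells with an open site and less opening per cell cannot be told apart.

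**Figure D1:**
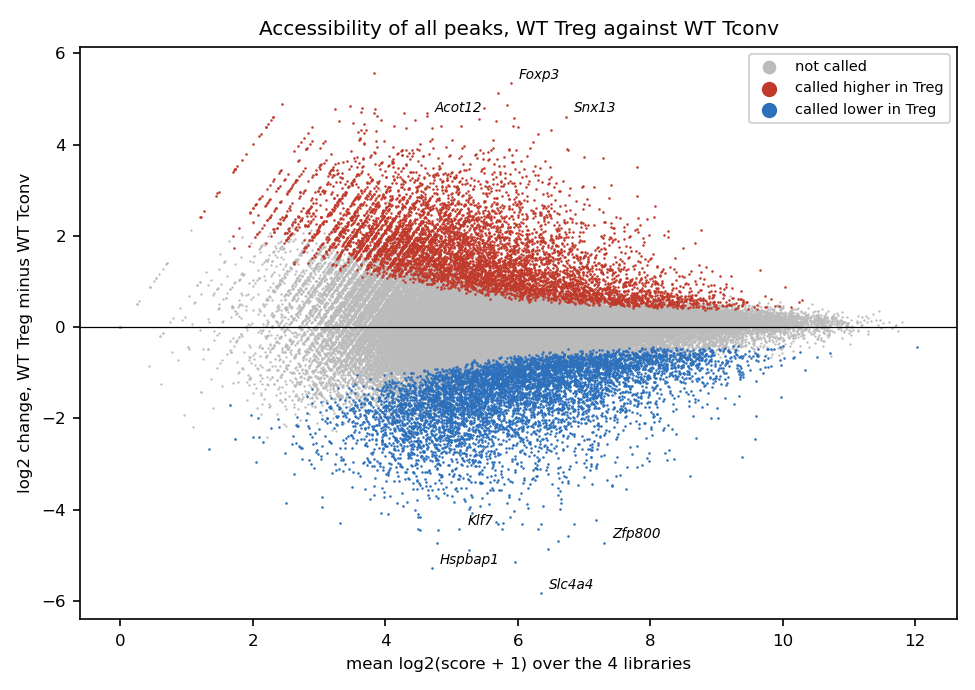
Each point is 1 of 69316 peaks, by its mean log2(score + 1) over the 4 libraries (x axis) and its log2 change, WT Treg minus WT Tconv (y axis). Red marks the 7011 peaks called higher in Treg, blue the 6878 called lower, and 7 of the peaks with the largest changes carry the name of the nearest gene.

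Foxp3 itself had 4 peaks, of which 2 were called higher. The peak inside the gene at chrX:7583922-7584322 scored 365 and 392 in Treg, against 4.90 and 13.6 in Tconv, a log2 change of 5.35 ± 0.50 (SE; adjusted p = 7.73e-07, limma). Both Treg libraries stood far above both Tconv libraries, which is the check of the labels. The promoter peak at chrX:7579463-7579863, which covers 263 bases of the sequence printed above, scored 55.0 and 87.8 in Treg, against 4.90 and 11.4 in Tconv, a log2 change of 3.05 ± 0.31. The other two peaks, farther into the gene, scored 56.2 and 44.9 in Treg against 47.4 and 27.3 in Tconv, and 22 and 20.4 in Treg against 27.8 and 45.4 in Tconv, and neither was called. The change at Foxp3 was thus measured at the promoter and 1 internal site.

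The gene lists were chosen with earlier results of these data known, so a list's distance from all peaks may partly follow from that choice. Genes of Treg identity stood apart from all peaks: 122 of their 261 peaks (46.7%) were called higher and 12 (4.6%) lower. The median log2 change was 0.77, and 19 of the 20 genes had a called-higher peak. The exception was Capg, which encodes an actin-capping protein, with 0 higher and 1 lower of 5 peaks. Lrrc32 encodes GARP, which holds latent TGF-beta on the Treg surface, and 9 of its 10 peaks rose. The peak inside Lrrc32 at chr7:98491686-98492086 scored 213 and 263 in Treg, against 8.16 and 6.82 in Tconv, a log2 change of 4.81 ± 0.31. Of 18 peaks nearest to Emsy, a BRCA2-binding protein gene on the same chromosome, 14 were higher and 1 lower. Itgb8 and Itgav encode the subunits of integrin alphaV-beta8, which frees TGF-beta from its latent form. The Itgb8 peak at chr12:119238594-119238994 scored 502 and 497 in Treg, against 53.9 and 59.1 in Tconv (log2 change 3.12 ± 0.19). The highest-scoring called Itgav peak, at chr2:83700644-83701044 scored 621 and 514 in Treg, against 37.5 and 47.7 in Tconv (log2 change 3.71 ± 0.23). Of the peaks of these integrin genes, 8 of 11 at Itgb8 and 9 of 17 at Itgav rose and none was called lower, while the Itgav promoter, at 658 and 652 in Treg against 552 and 548 in Tconv, did not pass.

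Ikzf2, which encodes Helios, had the most called-higher peaks of any gene, 23 of 41. Its peak at chr1:69544222-69544622 scored 554 and 476 in Treg, against 109 and 86.3 in Tconv (log2 change 2.39 ± 0.22). Ikzf4, which encodes the related factor Eos, had 4 of 6 peaks higher, the largest at 63.5 and 57.2 in Treg against 6.53 and 2.27 in Tconv (log2 change 3.63 ± 0.33). Ctla4, whose product strips the costimulatory ligands CD80 and CD86 from other cells, had 13 of 22 higher and none lower. At its peak chr1:60913328-60913728 the scores were 561 and 643 in Treg, against 65.3 and 100 in Tconv (log2 change 2.88 ± 0.27). Il2ra, which encodes the high-affinity IL-2 receptor chain CD25, changed less evenly: 8 of 18 peaks were higher and 1 lower. Its promoter peak scored 242 and 286 in Treg, against 235 and 284 in Tconv, a log2 change of 0.03 ± 0.17 that did not pass, whereas a site upstream of the gene reached 62.3 and 62.3 in Treg against 18 and 2.27 in Tconv. Nrp1, a semaphorin receptor carried by thymus-derived mouse Treg, moved both ways, with 12 of 38 peaks higher and 6 lower. Nt5e, which encodes the adenosine-forming ectoenzyme CD73, had 7 of 14 peaks higher and 1 lower. The highest-scoring of the called Nt5e peaks lay inside the gene, at 254 and 249 in Treg against 57.1 and 59.1 in Tconv, and its promoter did not pass. Entpd1, which encodes CD39 upstream of CD73 in the same pathway, had 4 of 14 peaks higher and none lower.

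**Figure D2:**
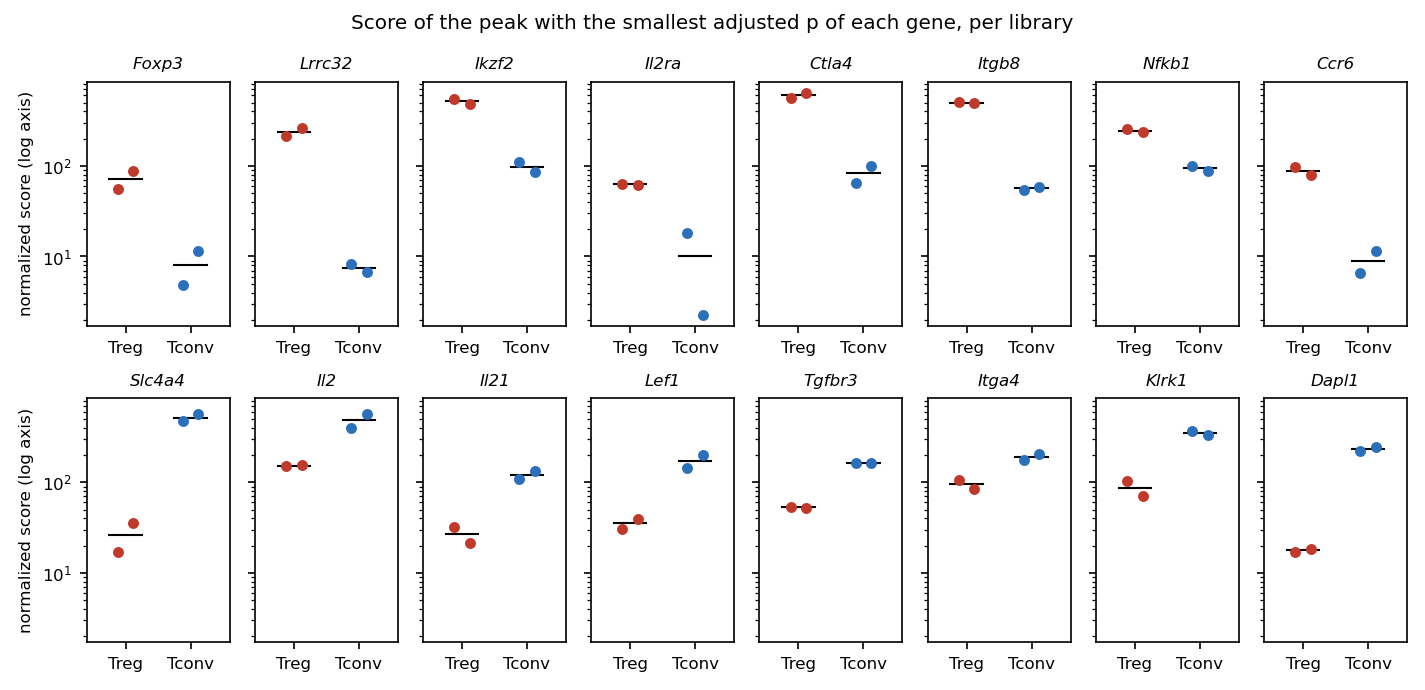
Normalized score (log axis) of 1 peak for each of 16 genes, the one with the smallest adjusted p, in each WT Treg library (red) and each WT Tconv library (blue); the bar is the mean of both libraries. Foxp3, Lrrc32, Ikzf2, Il2ra, Ctla4, Itgb8, Nfkb1 and Ccr6 are higher in Treg, and Slc4a4, Il2, Il21, Lef1, Tgfbr3, Itga4, Klrk1 and Dapl1 lower. The groups do not overlap in any panel, which follows from choosing peaks by p, and 57.9% of all peaks separate the groups too.

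The effector Treg genes, tied to activated and tissue-resident Treg, had 61 of 195 peaks higher (31.3%) and 12 lower (6.15%), with a median log2 change of 0.60. At Il10, which encodes the suppressive cytokine interleukin 10, 10 of 13 peaks were higher, from 11.0 and 16.3 in Treg against 3.27 and 4.54 in Tconv at the weakest to 362 and 308 in Treg against 134 and 84.1 in Tconv at the strongest. Its peak with the smallest adjusted p, at chr1:131010535-131010935, was 101 and 86.8 in Treg against 16.3 and 18.2 in Tconv (log2 change 2.38 ± 0.25). Tigit, an inhibitory receptor gene, and Maf, a transcription factor gene needed for Il10 expression, each had 7 called-higher peaks, of 15 and of 14. The Tigit promoter scored 519 and 492 in Treg against 496 and 550 in Tconv, with no call. Areg had 3 of 5 peaks higher, and the peak over its printed promoter scored 232 and 172 in Treg, against 50.6 and 38.6 in Tconv (log2 change 2.15 ± 0.26). Irf4, Batf and Prdm1, which encode the transcription factors that drive effector Treg, had called sites in these numbers: Irf4 had 3 peaks higher and 2 lower of 11, Batf 1 higher of 8, and Prdm1 1 higher and 3 lower of 20. Icos, a costimulatory receptor gene next to Ctla4, split in direction, with 5 higher and 3 lower of 27. Its lower site inside the gene scored 85.5 and 87.8 in Treg, against 204 and 273 in Tconv (log2 change -1.43 ± 0.21), while 4 of the 5 higher sites lay between Ctla4 and Icos.

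Genes of IL-2 and STAT5 signalling did not move as a group, with 20 of 126 peaks higher (15.9%) and 19 lower (15.1%) and a median log2 change of 0.01. Within the list, Cish, a STAT5-induced feedback inhibitor, had all 5 of its peaks higher. The Cish peak at chr9:107306136-107306536 scored 159 and 179 in Treg, against 49.0 and 47.7 in Tconv (log2 change 1.78 ± 0.24). Il2rb, the signalling chain shared by the IL-2 and IL-15 receptors, is counted in the Treg identity list and not in this one. It had 4 of 8 peaks higher and none lower, up to 429 and 446 in Treg against 168 and 136 in Tconv. Within the IL-2 and STAT5 list, Stat5b had 2 of 14 lower, Il4ra 3 of 10 lower, and Bcl2, which encodes a survival factor, 5 higher and 7 lower of 31. Il2, which Treg do not make in amount and which is counted with the conventional effector cytokine genes, had 3 of 6 peaks lower and none higher. Its strongest distal peak, chr3:37152293-37152693, scored 150 and 156 in Treg, against 400 and 564 in Tconv (log2 change -1.62 ± 0.21), yet the Il2 promoter scored 48.9 and 42.9 in Treg against 53.9 and 38.6 in Tconv (log2 change 0.00 ± 0.27) and did not pass.

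The conventional effector cytokine genes divided by gene rather than as a list, which had 22 of 121 peaks higher (18.2%) and 23 lower (19.0%), or 25 and 19 with median centring, and a median log2 change of 0.08. Il21, which encodes a helper cytokine for B cells and lies beside Il2, had 6 of 13 peaks lower and 1 higher, the strongest at 31.8 and 21.4 in Treg against 108 and 134 in Tconv (log2 change -2.16 ± 0.30). Cd40lg, the CD40 ligand gene of T cell help, had 6 of 13 lower and 1 higher. At Ifng, which encodes interferon gamma, 10 of 24 peaks were called higher in Treg and only the promoter peak lower, at 9.78 and 33.7 in Treg against 63.7 and 38.6 in Tconv (log2 change -1.39 ± 0.45). A site upstream of Ifng scored 13.4 and 29.6 in Treg and had no read in either Tconv library. The mean of its Treg scores, 21.5, was 3.67-fold the floor of 3 reads per Tconv library, a score of 5.86. Tnfsf11, which encodes the ligand RANKL, had 7 higher and 2 lower of 15. Csf2 (8 peaks), Il17a (5), Il17f (3), Il4 (2), Il5 (4), Lta (3) and Tnf (2) had no called peak.

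Transcription factors of the other helper lineages were near the background in count, with 23 of 171 peaks higher (13.5%) and 16 lower (9.36%), and most of the higher ones came from a pair of genes. Rora, which encodes a nuclear receptor of Th17 cells and tissue Treg, had 11 of 39 higher, the one with the smallest adjusted p at 115 and 132 in Treg against 32.7 and 20.4 in Tconv (log2 change 2.21 ± 0.29). Stat4, downstream of interleukin 12, had 6 of 18 higher and 2 lower. Runx3 had 3 of 26 lower and Tbx21, the Th1 factor gene T-bet, 2 of 8 lower, none of them higher. Those Tbx21 peaks were weak, the larger change lying between 1.22 and 11.2 in Treg and 16.3 and 36.4 in Tconv (log2 change -2.29 ± 0.65), and the call did not hold without Treg replicate 1 or Tconv replicate 2. Gata3, the Th2 factor gene, had 1 higher and 2 lower of 16, and its higher call did not hold without Tconv replicate 2.

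Naive and central T cell genes carried changes in both directions: 60 of 499 peaks were higher (12%) and 71 lower (14.2%), with a median log2 change of -0.15. With each library centred on its median, 74 were higher and 54 lower, and the list's balance thus turned. Single genes were less mixed. Lef1, which with Tcf7 encodes the factors of the naive state, had 12 of 40 peaks lower and 1 higher, the strongest at 30.6 and 39.8 in Treg against 144 and 202 in Tconv (log2 change -2.26 ± 0.31). Satb1, whose product organises chromatin loops in T cells, had 9 of 25 lower and none higher, at 47.7 and 34.7 in Treg against 157 and 125 in Tconv at chr17:51789121-51789521 (log2 change -1.76 ± 0.29). Ccr7, the receptor gene for lymph node entry, had 5 of 20 lower, and Dapl1 had 5 of 15 lower. The largest Dapl1 change lay downstream of the gene, at 17.1 and 18.4 in Treg against 220 and 243 in Tconv (log2 change -3.63 ± 0.43), and its printed promoter scored 13.4 and 16.3 in Treg against 84.9 and 63.6 in Tconv (log2 change -2.23 ± 0.45). Tcf7 had 3 of 17 lower and 1 higher. Its promoter and the peaks of its gene body did not pass, and the 3 lower sites lay upstream, the one at 51.3 and 76.6 in Treg against 113 and 161 in Tconv losing its call without Treg replicate 1. Foxp1 (12 higher and 8 lower of 86), Bach2 (11 and 10 of 66) and S1pr1 (6 and 6 of 33) held sites of both kinds within 1 gene, and Ets1 had 8 higher and none lower of 47.

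**Figure D3:**
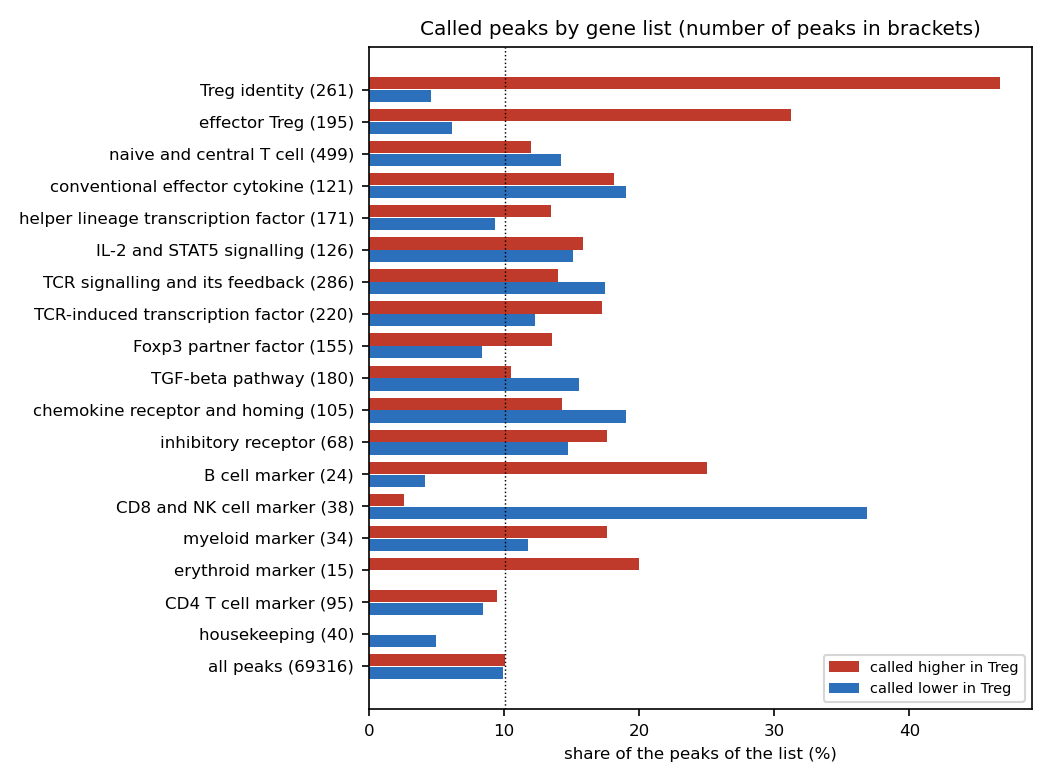
Share of the peaks of each gene list (x axis, percent) called higher (red) or lower (blue) in WT Treg than in WT Tconv, with the number of peaks of the list in brackets; the dotted line is the share called higher among all peaks (10.1%). Treg identity (46.7%) and effector Treg genes (31.3%) have the longest red bars, and the CD8 and NK cell marker list has the longest blue bar (36.8%).

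T cell receptor (TCR) signalling genes had 40 of 286 peaks higher (14.0%) and 50 lower (17.5%), and centring on the median gave 46 and 37. Lower calls outnumbered higher ones at some genes of the pathway: Prkcq, which encodes protein kinase C theta, had 9 of 43 lower and 2 higher, and Cd28, the main costimulatory receptor gene, 5 of 26 lower and 2 higher. At Prkcq the peak with the smallest adjusted p scored 114 and 166 in Treg, against 266 and 323 in Tconv (log2 change -1.09 ± 0.17). Feedback genes differed among themselves. Dusp4, a MAP kinase phosphatase gene, had 7 of 17 higher and 1 lower, with 199 and 185 in Treg against 19.6 and 6.82 in Tconv at the site with its smallest adjusted p (log2 change 3.93 ± 0.31), and Spry1 had 4 of 7 higher. Dusp6, a second phosphatase gene, had 6 of 12 lower and none higher.

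Among TCR-induced transcription factor genes (38 higher and 27 lower of 220 peaks, 17.3% and 12.3%), Nfkb1, which encodes the NF-kappaB proteins p105 and p50, had 12 of 32 peaks higher and 2 lower. Its peak with the smallest adjusted p scored 254 and 235 in Treg, against 99.6 and 88.6 in Tconv (log2 change 1.37 ± 0.19). Rel, which encodes c-Rel, a factor needed for Foxp3 induction, had 3 of 7 higher and none lower, led by 79.4 and 55.1 in Treg against 18 and 13.6 in Tconv (log2 change 2.01 ± 0.37). The 1 peak of Nfkbid, another NF-kappaB gene of the list, and the 2 peaks of Rela, which encodes p65, had no call. Bach1 had 8 of 20 lower and 1 higher, and Tox was split at 8 and 7 of 42. Genes of factors known to partner with Foxp3 were near the background (21 higher, 13 lower of 155 peaks), with Ikzf3 at 4 higher of 16 and Ikzf1 at 6 lower and 1 higher of 21.

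In the TGF-beta pathway 19 of 180 peaks were higher (10.6%) and 28 lower (15.6%), and the genes divided. Itgav is described above. On the receiving side, Tgfbr3, which encodes the co-receptor betaglycan, had 10 of 27 lower and 1 higher, and Tgfbr2, the ligand-binding receptor gene, 9 of 36 lower and 2 higher. A Tgfbr3 peak inside the gene scored 30.6 and 51.0 in Treg, against 235 and 293 in Tconv (log2 change -2.70 ± 0.51). Smad4, the shared signal carrier, had 3 of 8 lower, and the feedback inhibitor gene Smad7 had no call among 14. Chemokine receptor and homing genes had 15 of 105 peaks higher (14.3%) and 20 lower (19.0%), a balance that turned to 17 higher and 13 lower with each library centred on its median. The higher calls were mostly at Ccr6 (5 of 6) and Gpr15 (5 of 6, with 1 lower), a gene of homing to the large intestine. The peak over the printed Ccr6 promoter scored 81.9 and 87.8 in Treg, against 4.90 and 18.2 in Tconv (log2 change 3.01 ± 0.39), and the Gpr15 peak with the smallest adjusted p 615 and 422 in Treg, against 116 and 134 in Tconv (log2 change 2.02 ± 0.25). Itga4, the alpha4 integrin gene, had 8 of 16 lower and 1 higher, and Ccr2, Ccr9 and Cxcr4 had only lower calls, 2 of 7, 2 of 9 and 3 of 15. Inhibitory receptor genes were mixed, at 12 higher and 10 lower of 68 peaks, with Havcr2 (3 of 4 higher) and Cd96 (3 of 9 lower) at the ends.

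Markers of other cells of lymph node and spleen were measured the same way, although a sort on CD4 would remove most CD8 T, NK, B and erythroid cells. The CD8 and NK cell list had 14 of 38 peaks lower (36.8%) and 1 higher, with a median log2 change of -0.68 and a summed score of 2206 and 2157 in Treg against 4324 and 4040 in Tconv. All 3 peaks of Prf1, the perforin gene, and 4 of 5 of Klrk1, which encodes the receptor NKG2D, were lower. The strongest Klrk1 peak scored 104 and 70.4 in Treg, against 372 and 336 in Tconv (log2 change -2.04 ± 0.31), and the peak over the printed Klra1 promoter 6.11 and 15.3 in Treg, against 96.3 and 102 in Tconv (log2 change -3.22 ± 0.51). The 3 peaks of Cd8a and 4 of Cd8b1, which define CD8 T cells, had no call: the strongest Cd8b1 peak scored 169 and 145 in Treg, against 246 and 195 in Tconv, and the Cd8a peak inside the gene 35.4 and 34.7 in Treg, against 47.4 and 34.1 in Tconv. Ncr1, the NK cell receptor gene, stood at 26.9 and 11.2 in Treg against 21.2 and 25 in Tconv, without a call. Nkg7 and Gzma had no call either, and Klrb1c had 1 higher and 2 lower of 10 peaks. In the other populations the strongest Klrk1 peak scored 388 and 453.5 in Tnaive and 155 and 159.5 in Teff. It scored 116 and 191 in cTreg and 29.9 and 45.6 in eTreg. The part of such cells in the Tconv values was not tested. B cell markers, of which 8 of 12 genes had a peak, summed to 1859 and 1607 in Treg against 1865 and 1777 in Tconv (6 higher and 1 lower of 24 peaks), myeloid markers (7 of 12 genes with a peak) to 1909 and 2253 in Treg against 1956 and 1843 in Tconv (6 and 4 of 34), and erythroid markers to 1397 and 1327 in Treg against 1228 and 1293 in Tconv (3 and 0 of 15). The called B cell markers were Pax5 and Blk (2 of 4 peaks higher each), Cd22 and Ebf1 (1 higher each) and Pou2af1 (1 lower), while Cd79b, Cr2 and Spib had no call. Among myeloid markers Cebpb had 4 of 12 peaks higher and 1 lower, Cebpa 1 of 3 higher and Itgam 1 of 10 higher and 3 lower, while Cd14, Csf3r, Lyz2 and Spi1 had no call. Their part in the Treg and Tconv values was not tested either. Housekeeping genes had 0 higher and 2 lower of 40 peaks, both at X-linked genes, Hprt and Pgk1, and neither call held without Tconv replicate 1. Cd4 itself was open in both groups: its strongest peak scored 277 and 277 in Treg, against 460 and 382 in Tconv (log2 change -0.60 ± 0.15, a call that was lost without Tconv replicate 1), and Cd3e, a chain of the TCR complex, had 3 of 8 peaks lower.

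The rule for the largest changes also named genes outside the lists. Called-higher peaks with the largest changes, after Foxp3, Lrrc32 and Pter, included one near Snx13, a sorting nexin gene, at 548 and 499 in Treg against 22.9 and 18.2 in Tconv (log2 change 4.61 ± 0.25), and one inside Uvrag, an autophagy gene, at 172 and 152 in Treg against 6.53 and 6.82 in Tconv (log2 change 4.41 ± 0.25). The largest fall among those named was inside Slc4a4, which encodes a sodium bicarbonate cotransporter: at chr5:89090147-89090547 the scores were 13.4 and 7.15 in Treg, against 555 and 679 in Tconv (log2 change -5.83 ± 0.67). A peak inside Zfp800 followed the same pattern at a higher level, with 22 and 39.8 in Treg against 743 and 875 in Tconv (log2 change -4.72 ± 0.39). Changes clustered at some genes. After Ikzf2, the most called-higher peaks were at Hdac9, which encodes a class IIa histone deacetylase (19 of 25), Atxn1 (18 of 51), Prkca (16 of 39), Rad51b (16 of 49) and Mdfic (15 of 25). The genes with the most lower calls were Slc4a4 (18 of 20), Atp10a, a phospholipid flippase gene (17 of 39), Cox10 (14 of 24) and Ubac2 (14 of 30), followed at 12 each by App, the amyloid precursor gene (12 of 12), Ctnnd2, Diaph3, Gramd3, Lef1 and Plekha5. Of 15183 genes with a peak, 5638 had a called one: 2173 only higher, 2276 only lower and 1189 both. Long genes hold more peaks, and these counts were not scaled by length.

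By position, promoters changed least. Of 7986 peaks over a RefSeq promoter, 5.28% were called higher and 1.73% lower, against 10.4% and 11.3% of 35266 peaks in gene bodies, 10.7% and 10.3% of 21931 peaks between genes within 100 kb of one, and 14.1% and 12.1% of 4133 peaks farther away. Exons, introns and UTRs were not separated. Promoter peaks were also the strongest, with a median score of 281 in Treg and 252 in Tconv. Their median log2 change was 0.14, against -0.04 in gene bodies, -0.03 between genes within 100 kb and -0.05 farther away. The part of this shift in the excess of higher promoter calls was not tested. Outside the lists, the promoter of Cd80 was called higher, at 50.1 and 71.5 in Treg against 3.27 and 4.54 in Tconv (log2 change 3.65 ± 0.34), a gene chosen here after its values were seen. Its product is a ligand of CTLA-4.

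**Figure D4:**
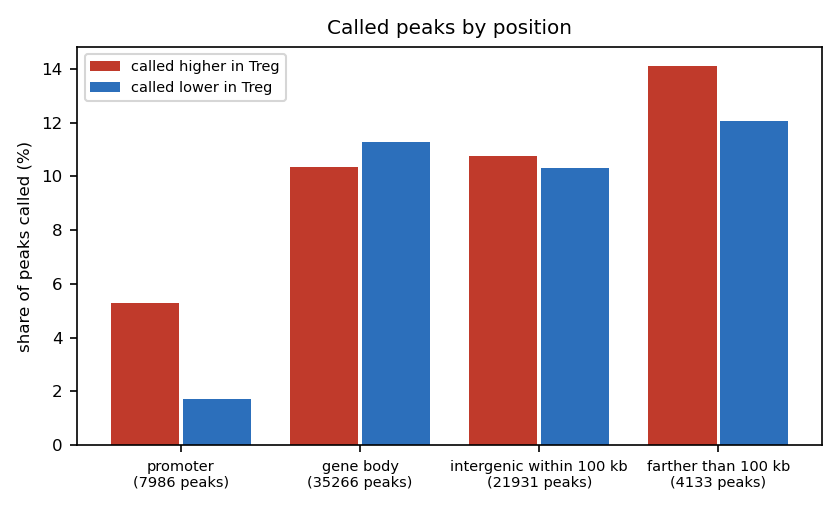
Share of peaks (y axis, percent) called higher (red) or lower (blue) in WT Treg than in WT Tconv, by position, with the number of peaks below each pair of bars. Promoter peaks have 5.28% higher and 1.73% lower calls, and the peaks farther than 100 kb from a gene 14.1% and 12.1%.

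The shares of some motifs in the promoters differed with the direction of the call. The NF-kappaB motif was found in 19 of 471 promoters with a called-higher peak (4.03%) and in 1 of 151 with a called-lower peak (0.662%), against 1.62% of 9267 promoters with any peak and 1.6% of all 21248. Among the 135 promoters whose peak was at least 2-fold higher the share was 6.67%. The Runx motif (TGTGGTT) went the other way, in 2.76% of promoters with a higher peak and 10.6% with a lower one, against 3.60% with any peak. The Ets motif (ACAGGAA) was in 9.13% and 17.9%, against 7.48%, and AP-1 (TGANTCA) in 7.22% and 9.27%, against 4.39%. Where the peak changed at least 2-fold, AP-1 was in 11.9% and 11.8%. The STAT motif (TTCNNNGAA) was in 3.61% and 8.61% (13 of 151), against 6.65%. At 2-fold or more it was in 1.48% and 3.92% (2 of 51), so its excess in lower promoters did not hold. The E-box (CAGCTG) was in 14.2% and 22.5%, against 14.1%, and in 13.3% and 21.6% at 2-fold or more. The forkhead motif (TGTTTAC), the family to which Foxp3 belongs, was in 1.91% and 3.31%, against 2.33%. At 2-fold or more its shares turned, to 2.96% (4 of 135) and 1.96% (1 of 51). Promoters with a lower peak were also poorer in G and C, with a median of 54.3% against 62.0% for those with a higher peak, and part of a motif's share can follow base composition. These shares were described and not tested.

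Other libraries of the same table, which share no sample with the 4 compared, showed the same directions at many of these peaks. Of the 7011 called-higher peaks, 54.5% were also called higher in cTreg against Tnaive and 46.7% in eTreg against Teff, where 8.80% and 8.40% of all peaks were called higher. Of the 6878 called-lower peaks, 55.2% and 47.3% were called lower there, where 7.82% and 9.07% of all peaks were. Over the alternative settings run on this table the shares of higher peaks ran from 42.5% to 64.5% for cTreg-Tnaive and from 32.1% (test against a 1.5-fold change) to 70.7% (fit on the compared groups alone) for eTreg-Teff, and those of lower peaks from 38.9% to 72.7% and from 42.4% to 57.6%. As shares of those lists, the overlaps were 62.6% and 56.3% for higher and 70.0% and 51.7% for lower calls. Opposite calls were few, 19 and 12 of the higher peaks and 11 and 29 of the lower ones. The same peaks also differed between effector and resting cells within a lineage: of the higher peaks, 59.4% were higher in eTreg than in cTreg and 65.1% higher in Teff than in Tnaive, where 19.7% and 20.7% of all peaks were (37.1% and 40.3% in either direction). Of the lower peaks, 53.0% and 61.9% were lower in those comparisons, where 17.4% and 19.6% of all peaks were. The populations of these comparisons overlap, so their shares are given side by side and were not compared.

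**Figure D5:**
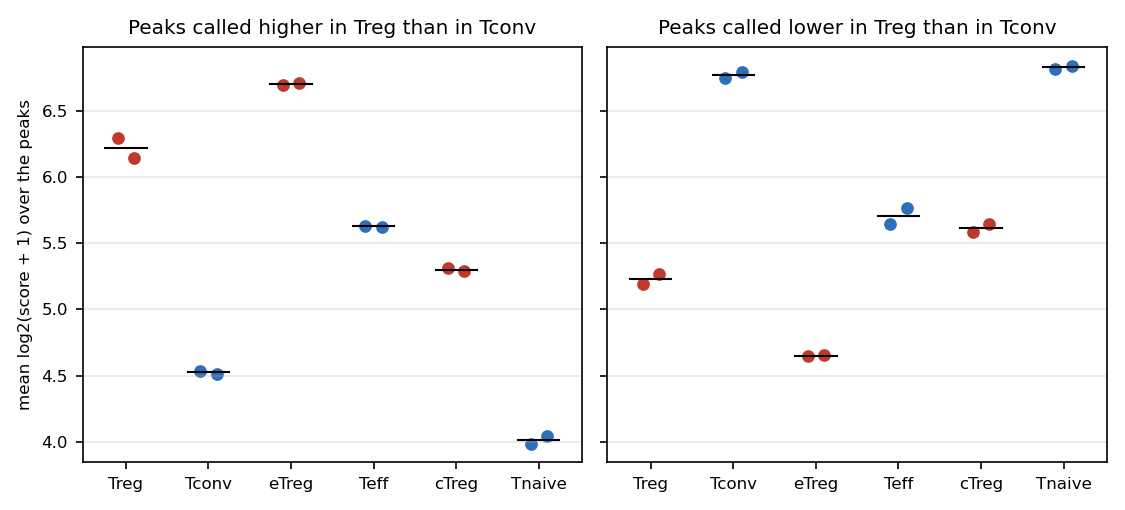
Mean log2(score + 1) over the 7011 peaks called higher (left) and the 6878 called lower (right) in WT Treg than in WT Tconv, for each library (points) and its group's mean (bar), under the names of the table of 26 libraries. On the left Teff lie at 5.63 and 5.62 and cTreg at 5.31 and 5.29, and on the right at 5.65 and 5.76 and at 5.59 and 5.65. Over all peaks Teff were also higher, at 5.76 and 5.79 against 5.65 and 5.63, a wider gap than on the right; the Treg and Tconv points chose the peaks.

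The size of the lineage difference was compared between populations by testing the difference of differences. Against eTreg and Teff, 407 peaks (0.587%) had a more positive and 286 (0.413%) a more negative Treg-Tconv difference. Several Treg identity sites were of the first kind, with Teff open there as well. The Ikzf2 peak given above scored 702 and 727 in eTreg and 570 and 518 in Teff, so the Treg-Tconv change exceeded the eTreg-Teff change by 2.0 ± 0.32 (log2, adjusted p = 0.00110, limma). A peak near Cd47, which encodes a signal against phagocytosis, scored 409 and 340 in Treg against 60.4 and 68.2 in Tconv, but 570 and 584 in eTreg against 538 and 508 in Teff (difference 2.38 ± 0.32). A peak inside Jak2 and one inside Prr5l behaved alike, with differences of 2.23 ± 0.30 and 2.42 ± 0.27. At Ctla4 and Nrp1 the differences were 1.57 ± 0.38 and 2.12 ± 0.37. The Foxp3 and Lrrc32 peaks had no such call, with 7.84 and 7.83 and with 11.3 and 14.7 in Teff against 381 and 363 and against 262 and 249 in eTreg. In the opposite direction, the Slc4a4 site was closed in both effector populations, at 0 and 4.68 in eTreg and 13.9 and 3.91 in Teff, against 8.0 and 22 in cTreg and 663 and 631 in Tnaive (difference -3.98 ± 0.94). The Zfp800 site was likewise at 5.54 and 3.51 in eTreg, 39.2 and 37.2 in Teff and 52.4 and 34.2 in cTreg, against 911 and 867 in Tnaive, without a call for the difference.

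Against cTreg and Tnaive, only 69 peaks (0.0995%) had a more positive and 76 (0.110%) a more negative Treg-Tconv difference. This count rests on the method: edgeR's quasi-likelihood test on the recovered reads called 3 with TMM scaling and 2 with DESeq2 size factors. At the Rora peak given above, Tnaive had no read in either library, and cTreg scored 70.2 and 67.2, so the Treg-Tconv change was smaller (difference -3.92 ± 0.42, adjusted p = 1.51e-05, limma). A peak near Slc5a8, a monocarboxylate transporter gene, scored 145 and 87.8 in Treg against 8.16 and 6.82 in Tconv, but 1.78 and 1.10 in cTreg against 2.55 and 2.59 in Tnaive, and 370 and 449 in eTreg against 84.5 and 84.1 in Teff (difference from cTreg and Tnaive 4.32 ± 0.59). A site of this kind was open in effector cells of either lineage and in the mixed Treg, and closed in both resting populations.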

How the data were processed

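Chromatin accessibility was measured by ATAC-seq. Reads were aligned with Bowtie2 2.4.1 to mm10, peaks were called with MACS2 2.2.7.1, and DiffBind (3.0.15, 3.4.11) and edgeR (3.36.0, 3.38.4) were used, per the submitters' processing notes. The table of 26 libraries holds the authors' deposited signal, a normalized read score per peak; division by one factor per library gave whole reads for every score (tolerance 0.02). Peaks were tested as log2(score + 1) with limma 3.58.1 (trend and robust, 13 groups in one fit, 13 residual degrees of freedom), with Benjamini-Hochberg adjustment over all 69316 peaks, and edgeR 4.0.16 was run on the recovered reads as an alternative with TMM scaling or DESeq2 1.42.0 size factors. In simulated counts on 69316 peaks for this comparison, 59 of 100 changes of 2-fold and 100 of 100 of 4-fold were recovered, with 62 false calls. The false calls were thus a larger share of all calls there than the threshold of 0.05 states. The changed peaks were drawn from those with a mean score above the median, and no other peak was changed. These rates therefore do not cover weaker peaks, or data with as many changes as the 13889 calls here. Each peak was given to the nearest protein-coding RefSeq gene within 100 kb (65183 peaks), and called a promoter peak where at least 100 bases overlapped a RefSeq promoter.

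The members and the 18 gene lists (252 genes) were chosen with earlier results of these data known. Named were the 12 largest changes in each direction (mean score above the median of 48.6, groups apart, 1 peak per gene), the 4 genes with the smallest adjusted p of each list, a set of 26 Treg and T cell genes, the 10 genes with most calls in each direction, and 4 peaks per direction for each difference of differences; other list genes are given by their counts, and the few of them described with values (such as Nt5e, Il2rb, Tigit, Rel, Cd8a, Cd8b1 and Ncr1) were chosen after their values were seen. Reads in peaks per library limit the precision, and intervals for single reads were not computed. Results for some genes of the lists are not reported here.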

Additional observations from a re-analysis of the deposited data

Results flagged for a closer look

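The named peaks were chosen in part by the smallest adjusted p of the tests below, and in part by the largest Treg-Tconv change. The lists of this section and their split of signs thus partly follow from that choice and do not stand for all peaks. Named peaks whose Treg-Tconv log2 change differed by limma's test from the eTreg-Teff change are listed with the difference of the changes. It was positive for Pter (2.89), Smyd3 (2.81), Nup35 (1.41), Uvrag (2.77), Ppp2r5c (3.14), Itgb8 (1.83), Il10 (1.79), Foxp1 (1.40), Ets1 (1.81), Tnfsf8 (2.46), Rora (1.76), Dusp4 (2.07), Foxp4 (2.35), Itgav (1.59), Gpr15 (1.57), Ctla4 (1.57), Ikzf2 (2.0), Nrp1 (2.12), Hdac9 (2.84), Mdfic (1.80), Samsn1 (2.41), Diaph3 (1.42), Tbck (2.48), Cd47 (2.38), Prr5l (2.42), Mgll (3.13) and Jak2 (2.23). It was negative for Slc4a4 (-3.98), Fbxo15 (-2.95), Jak1 (-1.98), Pecam1 (-2.72), Neb (-2.12), Ankrd55 (-2.44) and Mapk9 (-3.32). Peaks of the last kind at Pecam1, Neb, Ankrd55 and Mapk9 were low in Teff, at 4.35 and 4.89, 27.0 and 29.4, 9.58 and 13.7, and 3.48 and 5.87.

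Against the cTreg-Tnaive change, the difference was positive for Cc2d2a (3.34), Stat4 (3.12), Nebl (2.75), Ppfibp2 (2.91), Slc5a8 (4.32) and Tbck (3.27). It was negative for Ikzf4 (-2.46), Rora (-3.92), Ikzf2 (-1.97), Cd47 (-2.39), Myo1e (-3.01), Kcnk5 (-4.32) and Prr5l (-1.59). At Rora, Myo1e, Ikzf4 and Kcnk5 no Tnaive library had a read, so the fitted differences there depend on the pseudocount and are no bounds.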

How the results depend on the processing

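The Treg-Tconv count of 13889 calls stayed within 1.5 times under a pseudocount of 5 (16520) or 0.5 (12914), a filter, quantile scaling (20196), median centring (13900, of which 58.6% were higher), edgeR (13834) and the replicate block (16773). Testing against a 1.5-fold change left 4811, and leaving out 1 library gave 8332 to 10167. Without the WT Treg replicate 1, calls at Ebf1, Hprt, Pgk1, Tcf7, Tbx21 and Mapk9 were lost. For cTreg-Tnaive (11518 calls) the 1.5-fold test left 4497, leaving out 1 library 7582 to 8411, and the table of 22 libraries gave 5. For eTreg-Teff (12106) the groups alone gave 19384, the 1.5-fold test 4108, the replicate block 21129, leaving out 1 library 6891 to 7859, and the table of 22 libraries 4. For the difference from cTreg-Tnaive (145) quantile scaling gave 765, the groups alone 10, edgeR 3 with TMM and 2 with DESeq2 size factors, the 1.5-fold test 18, the replicate block 10, leaving out 1 library 42 to 423, and the table of 22 libraries 8516. For the difference from eTreg-Teff (693) a pseudocount of 5 gave 1673, quantile scaling 3071, the groups alone 1755, the 1.5-fold test 41, the replicate block 1718, leaving out 1 library 247 to 860, and the table of 22 libraries 8059. In that table the names eTreg, cTreg, Teff and Tnaive stand on other libraries; otherwise the cause was not tested. The Mgll peak, uncalled, was at -0.23 and reversed to 0.0038 there. Same-numbered libraries deviated together with r of 0.0639, 0.0435 and 0.0657, so the numbers were not taken to pair libraries, and no label speaks of pairing. Low reads in the Tconv libraries limit calls at weak peaks.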
